A study of Mus musculus with 12 samples.

Results

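The genes of the neutrophil granule proteins were examined in a list of accessible chromatin of mouse blood cells. The members are 10 genes, *Elane*, *Mpo*, *Prtn3*, *Ctsg*, *Ltf*, *Camp*, *Ngp*, *Lcn2*, *S100a8* and *S100a9*, and every peak that names 1 of them as its gene was taken, which gave 28 of the 84243 peaks of the list. The peaks came from ATAC-seq, in which a transposase cuts exposed DNA, on cells of wild-type C57BL/6 mice aged 8 to 12 weeks. There were 12 samples, 2 for each of 6 cell types: hematopoietic stem cells (HSCs), megakaryocyte progenitors (MkPs), erythroid progenitors (EPs), granulocyte/macrophages (GMs), T cells and B cells. T cells were taken from thymus and the others from bone marrow. GMs were sorted as cells positive for both Gr1 and Mac1, and no earlier stage of the granulocyte lineage was sorted apart from them. The authors pooled the peaks of all cell types in a single list, referred to as the master peak-list, which holds 0 columns of values per sample. A peak described here may stem from any of the cell types, and neither its cell type nor the labels of the sorted cells could be checked against markers. Depth is unknown, no value has an error between replicates, and no test was made. Where a gene lacks a peak, few cells with open chromatin, little open chromatin per cell and a peak lost in filtering cannot be told apart.

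Neutrophils pack antimicrobial proteins in granules that form in sequence as the cell matures. Primary (azurophil) granules are filled at the promyelocyte stage with myeloperoxidase (*Mpo*) and the serine proteases neutrophil elastase (*Elane*), proteinase 3 (*Prtn3*) and cathepsin G (*Ctsg*). Secondary (specific) granules are filled later, at the myelocyte stage, with lactoferrin (*Ltf*), the cathelicidin precursor (*Camp*), neutrophilic granule protein (*Ngp*) and lipocalin 2 (*Lcn2*). *S100a8* and *S100a9* encode the subunits of calprotectin, which is mainly cytosolic, so they were kept as a class of their own. C/EBP factors, PU.1, RUNX1 and MYB are known regulators of myeloid genes, with C/EBPε required for secondary granules. GATA factors act in the erythroid and megakaryocyte lineages, among others, and their string was searched as a contrast.

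The promoters of the primary and secondary genes are shown first, because the classes differed there. Each sequence is the 250 bases upstream of the transcription start site (TSS), 5′ to 3′ on the strand of the gene, from RefSeq on GRCm38 (mm10). All 10 members matched a RefSeq promoter. Capitals mark matches, on either strand, to consensus strings for C/EBP (TTGCNNAA), PU.1 (GAGGAAGT), RUNX (TGTGGT) or MYB (TAACNG). None of these strings contains another, and no matches overlap in the printed sequences.
Elane, chr10:79886062-79886311, plus strand: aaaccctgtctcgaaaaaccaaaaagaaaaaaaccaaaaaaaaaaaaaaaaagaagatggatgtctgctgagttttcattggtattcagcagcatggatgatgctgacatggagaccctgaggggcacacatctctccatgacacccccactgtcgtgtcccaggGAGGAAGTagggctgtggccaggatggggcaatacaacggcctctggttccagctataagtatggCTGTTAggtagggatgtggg
Mpo, chr11:87793534-87793783, plus strand: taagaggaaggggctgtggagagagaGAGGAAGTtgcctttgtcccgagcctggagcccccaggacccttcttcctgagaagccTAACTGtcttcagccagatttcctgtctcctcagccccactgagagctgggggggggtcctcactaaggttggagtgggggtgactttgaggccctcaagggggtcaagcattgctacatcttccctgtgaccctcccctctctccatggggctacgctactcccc
Prtn3, chr10:79879417-79879666, plus strand: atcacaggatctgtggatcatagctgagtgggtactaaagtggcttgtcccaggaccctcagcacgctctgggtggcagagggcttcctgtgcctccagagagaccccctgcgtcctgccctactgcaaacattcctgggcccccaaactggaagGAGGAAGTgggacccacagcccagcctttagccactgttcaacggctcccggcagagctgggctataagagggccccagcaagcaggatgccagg
Ctsg, chr14:56102575-56102824, minus strand: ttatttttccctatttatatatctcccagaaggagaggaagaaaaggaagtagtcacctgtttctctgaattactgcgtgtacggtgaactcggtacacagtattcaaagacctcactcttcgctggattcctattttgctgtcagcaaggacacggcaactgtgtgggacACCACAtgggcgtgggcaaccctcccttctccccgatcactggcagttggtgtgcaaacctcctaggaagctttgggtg
Ltf, chr9:111019042-111019291, plus strand: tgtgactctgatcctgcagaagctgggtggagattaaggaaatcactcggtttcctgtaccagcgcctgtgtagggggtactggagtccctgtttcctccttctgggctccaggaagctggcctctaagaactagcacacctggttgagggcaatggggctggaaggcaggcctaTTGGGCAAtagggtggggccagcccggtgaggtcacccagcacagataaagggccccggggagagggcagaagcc
Camp, chr9:109849457-109849706, minus strand: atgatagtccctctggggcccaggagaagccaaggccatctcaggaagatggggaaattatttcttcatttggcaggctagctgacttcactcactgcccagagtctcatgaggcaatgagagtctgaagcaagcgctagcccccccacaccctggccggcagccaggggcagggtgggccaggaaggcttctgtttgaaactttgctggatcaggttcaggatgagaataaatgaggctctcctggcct
Ngp, chr9:110419558-110419807, plus strand: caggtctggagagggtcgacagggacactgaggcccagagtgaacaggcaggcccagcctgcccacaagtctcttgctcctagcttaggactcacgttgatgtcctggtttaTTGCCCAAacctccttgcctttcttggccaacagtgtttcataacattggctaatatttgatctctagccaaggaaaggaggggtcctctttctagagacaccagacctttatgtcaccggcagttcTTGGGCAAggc
Lcn2, chr2:32387740-32387989, minus strand: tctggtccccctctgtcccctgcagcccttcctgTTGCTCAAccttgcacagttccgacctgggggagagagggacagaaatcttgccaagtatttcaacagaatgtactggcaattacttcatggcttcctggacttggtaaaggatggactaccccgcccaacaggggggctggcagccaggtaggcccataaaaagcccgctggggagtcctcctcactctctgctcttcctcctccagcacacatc

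In the promoter windows of 250 bases before to 50 after the TSS, the PU.1 string occurred in 3 of 4 primary genes and in 0 of 4 secondary genes. It lay with its first base at -85 in *Elane*, -95 in *Prtn3* and -224 in *Mpo*, counted from the TSS, each time on the strand of the gene. Among all 32817 RefSeq promoter windows, 3.2% held it. The C/EBP string showed the opposite distribution, with 3 of 4 secondary genes and 0 of 4 primary genes. It began at -75 in *Ltf*, at -138 and -11 in *Ngp* and at -216 in *Lcn2*, and 10.8% of all windows held it. *Camp* had none of the 5 strings in its window. The MYB string was found at -20 in *Elane* and at -166 in *Mpo* (23.3% of all windows). The RUNX string was found at -79 in *Ctsg* and at 26 in *Ltf* (16.8% of all windows). For the calprotectin genes, the PU.1 string began at -172 in *S100a8*, and the C/EBP string at -236 and the RUNX string at -64 in *S100a9*. The GATA string (AGATAA) occurred in *Ltf* at -32 and in *S100a9* at -30, where 11.2% of all windows held it. The TATA string TATAAA, searched on the strand of the gene after the peaks had been seen, was present at -30 in *S100a8* and at the first transcribed base of *S100a9* (8.32% of all windows). These matches are descriptions of letters and not evidence of binding. With 1 mismatch the C/EBP string occurred in 4 of 4 primary and 4 of 4 secondary windows. The PU.1 string then occurred in 4 of 4 primary and 2 of 4 secondary windows, a narrower contrast. Of all peaks centred within 500 bp of a TSS, 85.7% matched C/EBP and 48.9% PU.1 with 1 mismatch. The C/EBP search thus separates little at that setting. Those peaks are longer than the windows, and no such share was computed over all windows.

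**Figure D1:**
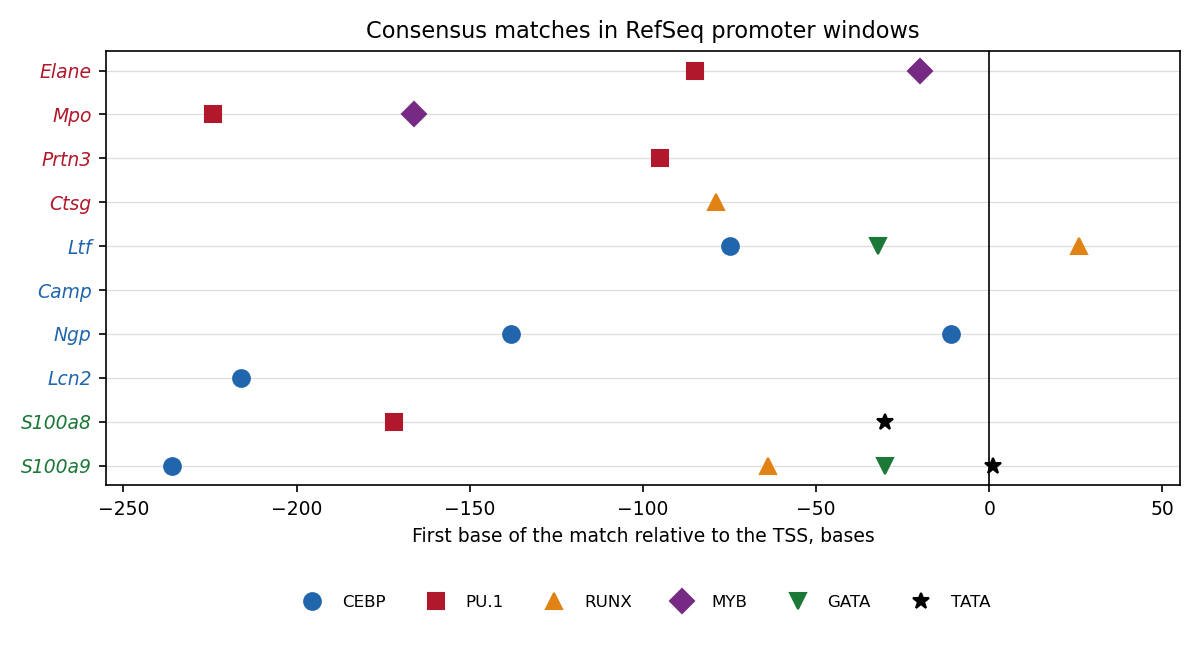
Position of the first base of each consensus match, in bases from the TSS, in the RefSeq promoter window of each gene, with the symbol giving the factor. PU.1 matches (squares) lie in *Elane*, *Mpo*, *Prtn3* and *S100a8*, and C/EBP matches (circles) in *Ltf*, *Ngp*, *Lcn2* and *S100a9*.

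Primary and secondary granule genes differed in their promoter peaks, defined here as peaks centred no more than 500 bp from a TSS. None of the 4 primary genes had a promoter peak, whereas each of the 4 secondary genes and both calprotectin genes had 1. This holds for the master peak-list, which the authors filtered to the most significant peaks. The paper counts more promoter peaks in each cell type than in this list. A promoter peak called in a single cell type may thus be missing from it. Across the genome, 60.3% of 21000 protein-coding genes had a master peak centred within 500 bp of a curated TSS, and 6 of 10 members did. In sequence, however, the members resembled a part of the genome where promoter peaks are less frequent. Their windows had a ratio of observed to expected CpG of 0.09 (*Mpo*) to 0.46 (*Ctsg*), and among the 6954 protein-coding genes with a ratio no higher than 0.46, 25.5% had a promoter peak. This limit was set by *Ctsg* alone. The other members had at most 0.31 (*Elane*), and no share was computed at a lower limit. Of the peaks named for a class, 0 of 7 were promoter peaks in the primary class (95% Wilson interval 0.0 to 35.4%), 4 of 11 in the secondary class (36.4%, 15.2 to 64.6%) and 2 of 10 in the calprotectin class (20%, 5.7 to 51.0%). In the whole list the share was 15.6%. The intervals overlap and cover counting error only, and the peaks of a class share a few genes. The contrast is thus between genes, 0 of 4 against 4 of 4, and was not tested.

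**Figure D2:**
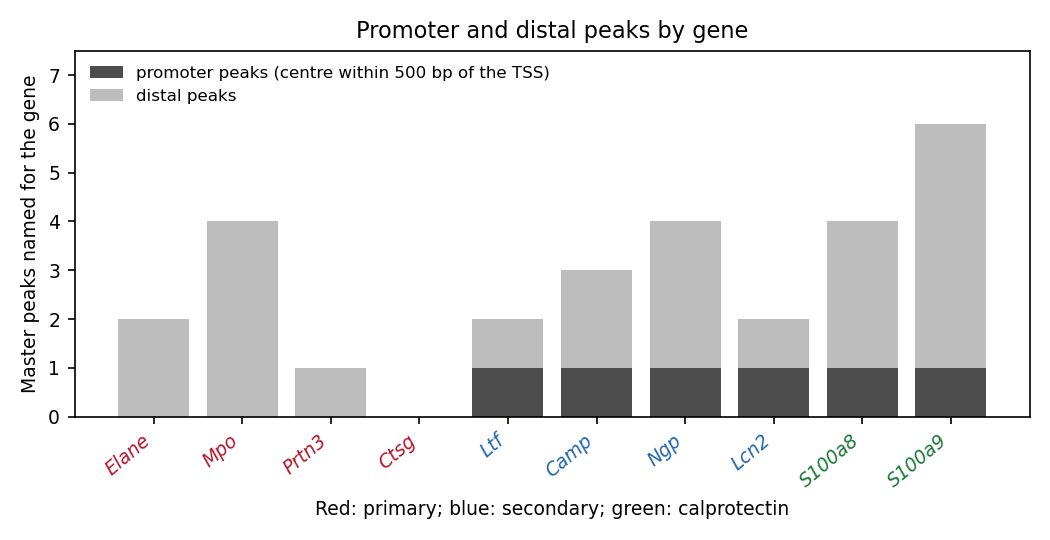
Number of master peaks named for each gene, divided into promoter peaks (dark, centre within 500 bp of the TSS) and distal peaks (light). The 4 primary genes, at the left, have distal peaks alone or, for *Ctsg*, 0 peaks, and each of the other 6 genes has 1 promoter peak.

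The gap at the primary promoters was wider than the threshold. The nearest master peak centre lay 1211 bp from the TSS of *Elane*, 1472 bp from that of *Mpo*, 1771 bp from that of *Prtn3* and 75275 bp from that of *Ctsg*. In the other 6 genes it lay 5 bp (*Ngp*) to 121 bp (*Camp*) away. No member therefore had its nearest centre between 121 and 1211 bp. The median over all protein-coding genes was 195 bp. Master peaks covered 0 of the 300 bases of the promoter window in each primary gene, 272 bases in *S100a8* and all 300 bases in the other 5 genes. Since the authors left multimapping reads out, the uniqueness of the sequence was measured as the share of 25-base words within 500 bp of the TSS that occur once in the assembled chromosomes. This measure was added after the peaks had been seen. It was 100% for *Mpo* and *Ctsg*, 96.3% for *Prtn3* and 76.2% for *Elane*. The secondary genes had 94.1% (*Ngp*) to 100%, *S100a8* 95.9% and *S100a9* 100%. Repeats made up 33.9% of this stretch in *Elane* and 27.9% in *Prtn3*, the highest shares among the members. The words are shorter than the reads of the study, so they do not measure whether reads could map. The part of repeats or of mapping in the missing promoter peaks was not tested.

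**Figure D3:**
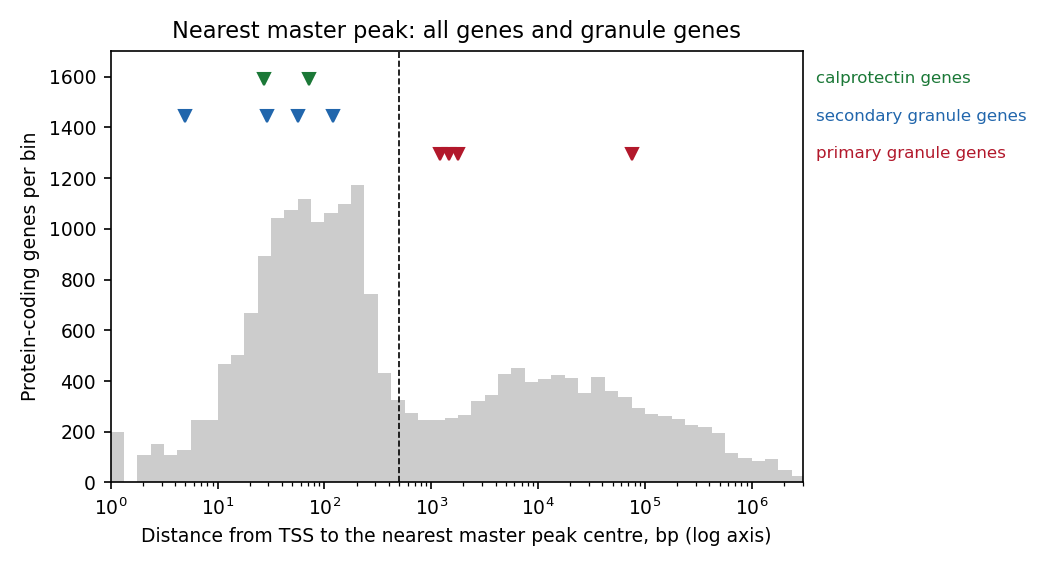
Distance in bp from the TSS to the nearest master peak centre, on a log axis, for 21000 protein-coding genes (grey bars) and for the members (triangles, coloured by class). The dashed line marks 500 bp, with the 4 primary genes to its right and the other 6 members to its left.

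Among the secondary genes, the promoter peaks were centred close to the TSS and upstream of it. The *Ngp* peak (chr9:110419554-110420052) was centred 5 bp upstream, the *Ltf* peak (chr9:111019014-111019512) 29 bp, the *Lcn2* peak (chr2:32387547-32388045) 57 bp and the *Camp* peak (chr9:109849328-109849826) 121 bp upstream. All 4 were annotated to the promoter by HOMER. Each of these 4 peaks contained the C/EBP string, whereas 11.6% of all 13171 promoter peaks did. Their median GC content was 55.5%, against 63.3% over all promoter peaks, and the share was not matched for this. In *Ngp* a match lay 2 bp from the peak centre and another at 129 bp. In *Ltf* the match lay 42 bp from the centre, in *Camp* 142 bp and in *Lcn2* 156 bp. The RUNX string was present in the *Ltf* and *Ngp* peaks, and the PU.1 string in none of the 4. *Ltf* also held the MYB string and 2 GATA matches, of which 1 lay at the centre of the peak and the other overlapped the MYB match.

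Distal peaks were equal in number, with 7 for the primary and 7 for the secondary genes, when each peak is named for its nearest promoter. With peaks linked by basal plus extension domains, which reach from each gene to its neighbours, the numbers were 11 and 19. Of these, *Mpo* had 8 and *Ngp* 10, so single genes made up most of each number. No such number was computed over all genes. The peaks named by nearest promoter had a median distance from the TSS of 2454 bp in the primary and 5097 bp in the secondary class. Over all 71072 distal peaks it was 22261 bp. In both classes 5 of 7 lay upstream (71.4%, against 41.7% in the whole list). Because a peak is named for the nearest promoter, genes with close neighbours cannot have far peaks.

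**Figure D4:**
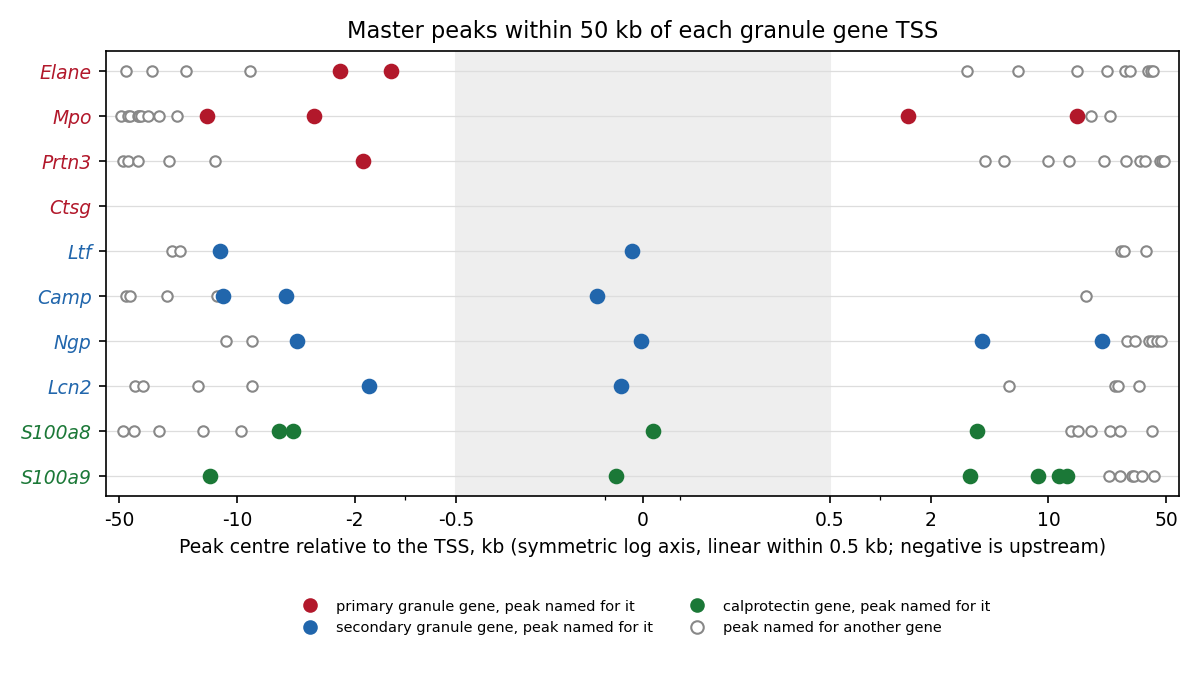
Position of every master peak within 50 kb of the TSS of each member, in kb on a symmetric log axis with upstream to the left. Filled points are peaks named for the gene, open points are named for a neighbour, and the grey band marks the promoter (0.5 kb to each side), which is empty in the 4 primary genes.

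For *Elane* (chromosome 10, plus strand, 79886312 to 79888216, 5 exons), both peaks lay upstream, between it and *Prtn3*. They were centred at -1211 bp (chr10:79884852-79885350) and -2454 bp (chr10:79883609-79884107), the latter annotated by HOMER to the termination site of *Prtn3*. The only peak of *Prtn3* (79879667 to 79883174, 5 exons) was centred at -1771 bp (chr10:79877647-79878145). HOMER placed this peak and the *Elane* peak at -1211 bp in intron 3 of 4 of the *Bc1* transcript. In the RefSeq annotation, *Bc1* is a transcript of 154 bp with 1 exon on chromosome 7, and both peaks lie outside curated genes. The TSSs of *Prtn3* and *Elane* are 6645 bp apart, so the 3 peaks flank *Prtn3* and precede *Elane*. Downstream of *Elane*, the next peaks lay at 3262 and 6621 bp and were named for *Cfd*, the gene of complement factor D.

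*Mpo* (chromosome 11, plus strand, 87793784 to 87804412, 14 exons) had 4 peaks, the most of the primary genes. The peak at -3483 bp (chr11:87790052-87790550) was intergenic. The peak at 1472 bp (chr11:87795007-87795505) covered exon 4 of 14 of *Mpo* and was the only distal peak of any member inside the member itself. The remaining peaks were in introns of neighbours, at -15165 bp in intron 22 of 31 of *Tspoap1* (chr11:87778370-87778868) and at 14702 bp in intron 11 of 12 of *Lpo* (chr11:87808237-87808735). *Lpo* encodes lactoperoxidase, a peroxidase related to *Mpo*. Within 50 kb of *Mpo* there were 15 peaks, of which 5 were named for *Mir142*, a microRNA of blood cells.

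The middle 200 bases of the peak closest to each of these 3 genes on its upstream side are shown, on the plus strand, with those of the *Ngp* upstream peak for comparison. Capitals mark the same strings as in the promoters.
Elane at -1211 bp, chr10:79885001-79885200, plus strand: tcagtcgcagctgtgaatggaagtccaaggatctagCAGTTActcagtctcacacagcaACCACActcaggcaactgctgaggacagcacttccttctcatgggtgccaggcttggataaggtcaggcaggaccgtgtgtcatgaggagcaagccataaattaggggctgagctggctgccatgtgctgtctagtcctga
Mpo at -3483 bp, chr11:87790201-87790400, plus strand: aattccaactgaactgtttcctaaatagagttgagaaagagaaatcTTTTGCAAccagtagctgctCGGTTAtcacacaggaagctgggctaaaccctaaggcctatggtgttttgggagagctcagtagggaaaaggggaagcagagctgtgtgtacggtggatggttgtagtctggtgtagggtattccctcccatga
Prtn3 at -1771 bp, chr10:79877796-79877995, plus strand: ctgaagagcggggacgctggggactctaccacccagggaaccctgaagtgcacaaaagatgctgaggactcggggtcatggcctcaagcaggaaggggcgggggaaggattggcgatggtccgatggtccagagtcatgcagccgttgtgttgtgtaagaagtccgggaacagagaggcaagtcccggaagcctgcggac
Ngp at -4395 bp, chr9:110415313-110415512, plus strand: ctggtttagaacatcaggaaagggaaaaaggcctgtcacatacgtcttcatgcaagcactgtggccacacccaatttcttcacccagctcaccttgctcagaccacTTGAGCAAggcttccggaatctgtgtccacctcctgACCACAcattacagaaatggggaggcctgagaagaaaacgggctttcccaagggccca

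The *Mpo* peak at -3483 bp was the only primary peak with the C/EBP string, 50 bp from its centre, and a MYB match lay 31 bp from the centre on the same side. A further MYB match in this peak lay 214 bp from the centre. The *Elane* peak at -1211 bp had a RUNX match 38 bp and a MYB match 61 bp from its centre, and another MYB match at 237 bp. The *Prtn3* peak had 3 RUNX matches, all between 137 and 207 bp from the centre and outside the printed part. The *Ngp* peak at -4395 bp (chr9:110415164-110415662) had a C/EBP match 10 bp and a RUNX match 45 bp from its centre.

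*Ctsg* differed from the other primary genes, with 0 peaks named for it and 0 within 50 kb. Of all protein-coding genes, 75.5% were named for at least 1 peak, and 9 of 10 members were. *Ctsg* lies on chromosome 14 (minus strand, 56099885 to 56102574, 5 exons) in a cluster of granule protease genes. The flanking master peaks were 156323 bp apart, and 10 curated genes lay wholly between their centres: *Ctsg*, the granzyme genes *Gzmd*, *Gzme*, *Gzmg* and *Gzmn*, the mast cell protease genes *Mcpt2*, *Mcpt4*, *Mcpt8* and *Mcpt9*, and *Mir6949*. Of the 84222 intervals between neighbouring centres in the list, 2.71% were at least this long. No peak within 50 kb was found for 13.23% of protein-coding genes, and 10.69% had their nearest centre at least as far away as *Ctsg*.

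Of the 7 distal peaks of the secondary genes, HOMER annotated 4 as intergenic. *Camp* (minus strand, 109847377 to 109849456) had peaks at -5097 bp (chr9:109854304-109854802) and -12121 bp (chr9:109861328-109861826), and the latter was 1017 bp from a peak named for *Cdc25a*. *Lcn2* (minus strand, 32384637 to 32387739) had a peak at -1637 bp (chr2:32389127-32389625). *Ltf* (plus strand, 111019292 to 111042766, 17 exons) had a peak at -12563 bp (chr9:111006480-111006978), in intron 5 of 6 of the non-coding gene *Gm10030*. *Ngp* (plus strand, 110419808 to 110423012) had, besides the peak shown, peaks at 4022 bp, annotated to its own termination site, and at 20700 bp, in intron 4 of 9 of *Klhl18* on a B1 repeat. The C/EBP string was present in 4 of these 7 peaks, 3 times in that of *Ltf*, against 20.7% of all distal peaks and 1 of 7 distal peaks of the primary genes. *Ltf*, *Camp* and *Ngp* are all on chromosome 9 but not in a cluster, with 570352 bp between the TSSs of *Camp* and *Ngp* and 599484 bp between those of *Ngp* and *Ltf*.

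*S100a9* had 6 peaks, the most of any member, and *S100a8* had 4, as many as *Mpo* and *Ngp*, while the median protein-coding gene had 2 and 18.6% had 6 or more. They lie 26650 bp apart by TSS on chromosome 3, with *S100a8* on the plus strand (90669071 to 90670034) and *S100a9* on the minus strand (90692630 to 90695721), so that their 3′ ends face each other. The promoter peak of *S100a8* (chr3:90668849-90669347) was centred 27 bp downstream of the TSS, in exon 1 of 3, and was the only member peak with the PU.1 string. That of *S100a9* (chr3:90695544-90696042) was centred 72 bp upstream and held the C/EBP, RUNX and GATA strings. Between the promoter peaks lay 5 peaks, at 3780 bp from *S100a8* and at 3411, 8714, 11570 and 12938 bp downstream of the *S100a9* TSS. The peaks at 8714 bp (chr3:90686758-90687256) and 12938 bp (chr3:90682534-90683032) held 2 C/EBP matches each. Upstream of *S100a8* were peaks at -4668 and -5623 bp, both annotated to an L1 repeat, and upstream of *S100a9* was a peak at -14529 bp. In this class 3 of 8 distal peaks lay upstream.

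By class, the C/EBP string was present in 8 of 11 secondary, 4 of 10 calprotectin and 1 of 7 primary peaks. The primary class had distal peaks only. Among distal peaks the string was present in 4 of 7 secondary, 3 of 8 calprotectin and 1 of 7 primary peaks (20.7% of all distal peaks). When only the central 200 bp of each peak were searched, 5 secondary peaks and 1 primary peak held it. No share over all peaks was computed for the central part. The difference between the classes was lost with 1 mismatch, when 6 of 7 primary and 10 of 11 secondary peaks matched. Of all peaks, 85.7% of promoter and 97.3% of distal peaks then matched, so that search separates little. By site, the exact C/EBP string was present in 5 of 6 promoter peaks (11.6% of all promoter peaks) and in 8 of 22 distal peaks (20.7% of all distal peaks). The RUNX string was present in 3 of 6 promoter peaks (19.6% of all promoter peaks) and in 8 of 22 distal peaks (42.5% of all distal peaks). The MYB string was present in 1 of 6 and 7 of 22 (27.1% and 43.0% in the list). The PU.1 string was present in 1 of 6 and 0 of 22 (4.79% and 10.2%), and the GATA string in 2 of 6 and 2 of 22 (8.66% and 26.9%). In promoter peaks the C/EBP, RUNX, PU.1 and GATA strings were thus all more frequent than in the list, the contrast string included, and the MYB string was not. For PU.1 this rests on 1 peak. The sets also differ in composition, with a median GC content of 53.3% in the members' promoter peaks and 63.3% in all promoter peaks. No share matched for composition was computed. Over the 22 distal peaks this held for the C/EBP string only. With 28 peaks from 9 genes these counts are descriptions, and no test was made.

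The promoter peaks of the members were also poor in CpG. Their ratio of observed to expected CpG ran from 0.12 (*Lcn2*) to 0.29 (*S100a8*), against a median of 0.78 over all promoter peaks, and 4 of 6 lay in the lowest 2.5% of that distribution. Their GC content ran from 48.3% (*S100a9*) to 58.5% (*Lcn2*), with a median of 63.3% over all promoter peaks. Distal peaks did not stand apart in this way, with a median CpG ratio of 0.21 for the members and 0.22 in the list. Of the 22 distal peaks, 17 lay outside curated genes, 4 inside a gene other than the member and 1 inside the member. Sequence masked as repeats made up more than 50% of 4 of the 22 (18.2%), compared with 4.2% of all distal peaks. These were the *Elane* peak at -1211 bp (68.1%), the *S100a8* peak at -5623 bp (65.9%), the *Ngp* peak at 20700 bp (54.7%) and the *S100a9* peak at 3411 bp (52.3%).

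Naming by the nearest promoter leaves out many peaks close to the members. Within 50 kb of the 10 TSSs there were 84 master peaks, whatever gene they were named for. *Prtn3* had 17 of them in reach and *Elane* 15, although they were named for 1 and 2. *Ltf* had the fewest after *Ctsg*, with 7, and the median protein-coding gene had 6. Around *Ngp*, 6 of 12 peaks were named for *Klhl18*. Around *Lcn2*, peaks 5822 and 8137 bp away were the promoter peaks of *1110008P14Rik* and *Ptges2*. Thus the primary genes other than *Ctsg* were not in regions without peaks, and it was their promoters that held none.

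Among 20 other genes listed for neutrophil granules, among them the leukotriene receptor gene *Ltb4r1*, 16 had a promoter peak (60.3% of all protein-coding genes) and 4 did not. These 4 were *Prss57*, *Chil3*, *Fcnb* and *Lrg1*. *Prss57* encodes a further serine protease of primary granules, and its nearest peak centre was 4568 bp away, with 0 peaks named for it. *Lrg1* also had 0 named peaks, with the nearest centre at 4323 bp. The nearest centre was 5167 bp away in *Chil3* and 7406 bp away in *Fcnb*. *Bpi*, which encodes another primary granule protein and was picked out after its value was seen, had a peak centre 71 bp from a TSS, so a missing promoter peak did not extend to all primary granule genes. The remaining genes of this list were not divided by granule class. Whether a missing promoter peak is particular to primary granule genes, or also occurs in further secondary granule genes, was therefore not examined. *Ctsc*, the gene of the protease that activates the granule serine proteases, had the most peaks of this list with 25, and its nearest centre was 50 bp from a TSS. The 20 genes had 98 peaks, of which 16 were promoter and 82 distal peaks, with a median of 3.5 per gene.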

How the data were processed

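ATAC-seq was performed by the authors on 12 samples of 6 sorted mouse cell types. Reads were aligned to mm10 without multimapping reads, and peaks were called with the ENCODE pipeline. The optimal lists of the cell types were pooled, then filtered with chromVAR to the most significant, non-overlapping peaks. The authors annotated these with HOMER (version 4.10.2 per the labels). The peak score deposited by the authors was 0 in every peak and was not used. Peak positions and signed distances to the TSS, in bp, were used as deposited, and every peak was 499 bp wide.

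Peaks were selected by gene name, with the members and lists chosen when earlier results of these data were known. All 10 members were named, and other genes as neighbours of a member or of its peaks, or as the genes of a list with the most or fewest peaks. Genes behind a count of 5 or fewer, *Bc1* and *Bpi* were chosen after their values were seen. Genes, promoters and sequence came from RefSeq, release 108, of GRCm38.p6, the assembly of mm10. For the members, the HOMER distance was within 2 bp of the RefSeq TSS in 28 of 28 peaks. Strings were searched on both strands of whole peaks. The search recovered 1200 of 1200 sites planted in simulated sequences. Tables were handled with pandas 2.3.3 and numpy 2.4.6 in Python 3.11.15, intervals with scipy 1.17.1, and plots with matplotlib 3.10.9.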

Additional observations from a re-analysis of the deposited data

How the results depend on the processing

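No paired analysis was possible because the list holds no values per sample, and leaving out a replicate could not be run for the same reason. The alternatives for promoter windows were chosen after seeing the data. Of 67 alternative values for 24 results, 47 were equal to the reported value or, for counts, within 1.5 times of it. The 0 promoter peaks of the primary genes stayed at 0 under all 3 other promoter widths and with the nearest curated RefSeq TSS. These settings could not have given another value, because the master peak centre nearest to a primary TSS was 1211 bp away (*Elane*). They are counted among the 67 values but do not measure stability. Those of the secondary genes fell to 3 with a promoter half-width of 100 bp, since the *Camp* peak is 121 bp away. Linking peaks by basal plus extension domains gave 11 distal peaks for primary and 19 for secondary genes, in place of 7 each. With *S100a8* and *S100a9* counted as secondary genes there were 15 distal peaks, with a median distance of 5623 bp in place of 5097 bp. With 1 mismatch, peaks of primary genes with a match rose to 6 for C/EBP, 4 for PU.1, 7 for RUNX, 7 for MYB and 7 for GATA. Peaks of secondary genes rose to 7 for PU.1, 11 for RUNX, 11 for MYB and 10 for GATA. With 1 mismatch the strings match 97.3% (C/EBP), 62.2% (PU.1), 99.6% (RUNX), 100% (MYB) and 98.2% (GATA) of all distal peaks. Over all promoter peaks the shares are 85.7%, 48.9%, 96.7%, 99.7% and 80.7%, in the same order. For all strings but PU.1 this search thus separates little. In the central 200 bp, secondary peaks fell to 5 for C/EBP, 3 for RUNX and 1 for MYB, and no share over all peaks was computed for this setting. Promoter windows with 1 mismatch rose to 4 for C/EBP in primary and to 2 for PU.1 in secondary genes, both from 0. Those for PU.1 in primary and for C/EBP in secondary genes rose from 3 to 4. Peaks within 20 kb of a member numbered 41, and within 100 kb 141, in place of 84. Depth is unknown, so a missing peak sets no upper limit on accessibility.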

Other observations

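Granule genes of other blood cells were also counted, without a test. Here a promoter peak is any master peak centred within 500 bp of a curated TSS, whatever gene it was named for. The counts can be read against the 60.3% of all protein-coding genes that had such a promoter peak. Of 10 eosinophil, basophil and mast cell granule genes matched (of 11 listed), 2 had a promoter peak, *Prg3* and *Cpa3*, and the 10 genes had 8 peaks in all. Among those without one, *Mcpt4* and *Mcpt8* lie in the same interval without peaks as *Ctsg*, so they are not separate from that gap. Of 7 cytotoxic lymphocyte granule genes, 3 had a promoter peak, *Gzmb*, *Prf1* and *Nkg7*, and the 7 genes had 12 peaks. *Gzma* had 0 named peaks, with its nearest centre 54313 bp away. Of 11 other S100 genes of the cluster on chromosome 3, 8 had a promoter peak, and the 11 genes had 30 peaks. Among the 8 was *S100a1*, with its nearest centre at 326 bp but 0 named peaks, so that peak was named for another gene. *S100a10* had the most, with 8, and *S100a7a*, the neighbour of *S100a8*, had 3 peaks and its nearest centre at 1217 bp.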
